A study of Mus musculus with 12 samples.

Results

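Natural killer (NK) cells and cytotoxic T cells kill infected or transformed cells. Receptors on the NK surface read the balance of activating and inhibitory ligands on a target. Killing then proceeds through perforin, which opens the target membrane, and granzymes, the proteases that enter through it. The T-box transcription factors T-bet (Tbx21) and eomesodermin (Eomes) drive the maturation of these cells, which are a small minority in bone marrow. Chromatin accessibility was read at 10 genes of this programme: the receptors Klra8, Klrd1, Klrk1, Klrb1c and Ncr1, the effectors Gzma, Gzmb and Prf1, and the factors Eomes and Tbx21.

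Bone marrow of NZO/HILtJ mice, a strain known for obesity, was profiled by ATAC-seq. ATAC-seq counts cuts by a transposase in DNA that nucleosomes leave open. The 12 libraries came from 3 females and 3 males at 3 months of age and 3 females and 3 males at 18 months, with no other allele or treatment named. The sample labels name bone marrow with no sorted cell type, while the protocol text describes sorting of CD8 T cells, so marker genes were checked. A peak was taken when its centre lay in one of the 10 genes or within 15 kb of its ends (RefSeq positions on GRCm38, the assembly also called mm10). Of 75281 consensus peaks, 27 qualified: 14 at receptors, 5 at effectors and 8 at transcription factors. Klrb1c and Tbx21 had 6 peaks each, Klra8 and Gzma 4 each, Klrd1 3, Eomes 2, and Klrk1 and Prf1 1 each. Ncr1, which encodes the activating receptor NKp46, and Gzmb, which encodes granzyme B, had 0. Peaks are numbered within each gene by position on the chromosome.

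All 27 peaks passed the filter on low counts, with between 16 and 1597 counts per library. Levels are given as CPM, each library's counts scaled to a common total in peaks and by TMM factors (trimmed mean of M values), and total counts in peaks ranged from 7668099 to 12756647 per library. Scaled by peak length, the median level of the 27 peaks was 9.94 CPM per kb, against 10.2 CPM per kb over all tested peaks. Peaks of the erythroid list (12 of 12 genes with a peak) and of the neutrophil list (12 of 12) were present, with summed levels given below. Of 16 T cell markers, 12 had a peak, among them Cd4, Cd8a and Trac, while Cd3e, Cd8b1, Themis and Bcl11b had none assigned. Median levels were 9.40 CPM per kb at erythroid, 13.3 at neutrophil and 11.2 at T cell peaks. These values do not settle which cells were profiled, and the labels were followed. Each run held mice of 1 age: 0 of the 6 sequencing runs contained both, so age and run cannot be told apart and no within-run value exists. At 18 months each sex also had a run of its own. The labels number the mice separately, and p-values measure the spread between these mice.

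Of the 9 genes with a RefSeq promoter entry (all but Klrd1), 2 had a peak over the sequence just before their start, which is shown because it is where the deposited peaks meet a promoter. The sequences are from RefSeq, GRCm38.p6, 5′ to 3′ on the gene's strand, and capitals mark matches to the motifs searched. Only bases before the annotated gene start are printed: 250 for Gzma (minus strand, chr13:113100982-113101231) and 165 for Prf1 (plus strand, chr10:61297586-61297750).
Gzma: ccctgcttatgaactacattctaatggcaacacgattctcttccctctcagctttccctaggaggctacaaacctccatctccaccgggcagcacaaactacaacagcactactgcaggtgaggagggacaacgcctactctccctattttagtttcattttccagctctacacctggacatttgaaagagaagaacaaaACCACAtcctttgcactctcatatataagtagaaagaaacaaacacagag
Prf1: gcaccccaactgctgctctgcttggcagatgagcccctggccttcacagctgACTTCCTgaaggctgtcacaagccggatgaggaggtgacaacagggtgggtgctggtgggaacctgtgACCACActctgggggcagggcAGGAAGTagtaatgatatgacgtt
The motifs searched on both strands were TCACACC for T-box factors, TGTGGT for Runx factors, AGGAAGT for ETS factors and TGANTCA for AP-1. The Gzma stretch held 1 Runx match, which 4614 of 32851 RefSeq promoter entries also hold in their 250 bases. The Prf1 stretch held 1 Runx match and 2 ETS matches, and 9.52% and 4.49% of entries hold at least 1 match to these motifs over 165 bases. T-box and AP-1 letters were not matched in either stretch, which 3.33% and 6.75% of entries hold over 250 bases and 2.27% and 4.54% over 165. A match is a match of letters only, and the motifs do not overlap each other in these stretches.

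Accessibility at 18 months was compared with that at 3 months, with sex as covariate, using edgeR's quasi-likelihood test over all 75164 tested peaks. A peak was called when its Benjamini-Hochberg adjusted p was under 0.05. Of the 27 peaks, 5 were called higher at 18 months and 1 lower. Over all tested peaks 9.43% were called higher and 11.6% lower (21.0% in either direction), so the 6 calls (22.2%) lie near the background share. The 5 higher calls were at Klra8 (2), Klrb1c (1), Gzma (1) and Tbx21 (1), and the lower call was at Klrb1c. The direction was more uniform than the calls: the log2 fold change was above 0 at 25 of 27 peaks, against 53.0% of all tested peaks, with a median of 0.22 against 0.02. Of all calls 44.9% were higher, and 62.8% under scaling by total counts, where 5 of the 27 peaks were called, all higher, against 14.9% of all tested peaks called higher. The libraries are read as unsorted marrow, where more cells of a type and more accessibility per cell cannot be told apart.

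The calls depended on single mice. Without 3-month female BM-245, 1 of the 27 peaks was called, against 16.3% of all tested peaks in that fit. Without 3-month male BM-251, 2 were called, against 16.8%. Without 18-month female 36, 18-month female 42 or 18-month male 38, 3 were called in each case, and leaving out any other library gave 4 to 7. Over the 12 fits, 16.3% to 24.9% of all tested peaks were called. The median fold change of the 27 peaks lay between 0.17 and 0.23 across these 12 fits, and 21 to 25 of the 27 values were above 0, with 21 without 3-month male BM-253.

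**Figure D1:**
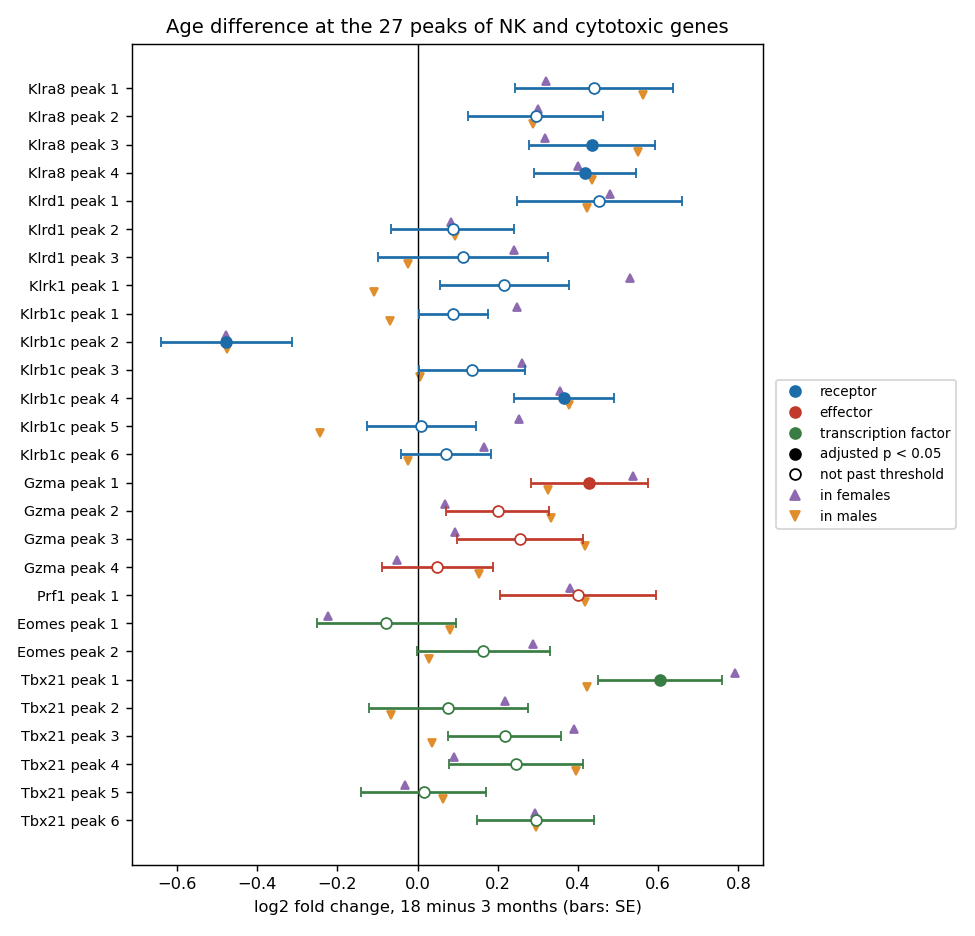
Log2 fold change from 3 to 18 months (x axis) at each of the 27 peaks (y axis), with circles for the fit over both sexes, bars for its SE, and triangles for females and males. Filled circles mark the 6 called peaks, and 25 of the 27 circles lie to the right of 0.

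Summed over the 27 peaks, levels at 18 months were 316 to 359 CPM with a median of 332. At 3 months the sum was 288 to 315 CPM with a median of 297. The sums of the ages did not overlap, and they also did not when the 5978 bp peak at Klrb1c, the widest, was left out: 209 to 232 CPM against 178 to 207. Marker sums of some other marrow cells also moved with age in the same libraries. The erythroid marker sum was 1243 to 1330 CPM at 18 months and 1954 to 2323 at 3 months. The mast cell and basophil sum was 202 to 216 CPM at 18 months and 149 to 199 at 3 months, so that both it and the erythroid sum did not overlap between the ages. The neutrophil sum, which did overlap, was 1456 to 1673 CPM at 18 months and 1190 to 1742 at 3 months, where 3-month male BM-253 held the highest value and the other young mice lay at 1308 or below. The part of these shifts in the differences at the NK and cytotoxic genes was not tested. Without that male, Klra8 peak 3 was no longer called and Tbx21 peak 6 was, and the share of all tested peaks called higher was 12.0%.

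The receptors are encoded in the NK gene complex on chromosome 6, apart from Ncr1 on chromosome 7. Their 14 peaks gave 3 higher calls and 1 lower (28.6% called, 21.4% higher, against 21.0% and 9.43% of all tested peaks), a median log2 fold change of 0.18, and values above 0 at 13. Klra8 encodes Ly49H, an activating receptor of the Ly49 family known for recognising a cytomegalovirus protein in strains that carry it. All 4 of its peaks had log2 fold changes of 0.29 to 0.44. None lay at the gene start. Peaks 3 and 4 lay inside the gene. The centre of peak 2 was 40 bp and that of peak 1 3989 bp beyond its far end, which peak 2 overlaps. Ly49 genes are closely related copies whose number differs between mouse strains, and the reference is from C57BL/6J, so the origin of reads in these peaks is uncertain.

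The most abundant of them, Klra8 peak 4 (chr6:130122078-130124038, 1961 bp), stood at 17.01, 18.4 and 24.5 CPM (lowest, median and highest of 6) at 18 months. At 3 months it stood at 10.1, 15.8 and 17.3 CPM. Of the old mice, 5 exceeded every young one, and the young group held low values in female BM-245 and male BM-253, while old male 39 stood highest. The increase was 0.42 on the log2 scale (SE 0.13, edgeR adjusted p = 0.0146). It was not past the threshold without old male 39 (adjusted p = 0.0664) or young female BM-245 (adjusted p = 0.0717). These lie within a range of 0.0031 to 0.0717 over all its alternatives. Klra8 peak 3 (chr6:130117546-130118109) was 6.64, 7.65 and 10.7 CPM at 18 months and 4.46, 5.84 and 8.24 at 3 months. The groups overlapped, and the change was 0.44 (SE 0.16, edgeR adjusted p = 0.0400). It held only without old female 35, old male 40, young female BM-243 or young male BM-252, and was lost in the other 8 fits that leave out a library. It was also not called with DESeq2 (adjusted p = 0.0516), abundance offsets (0.0666) or width offsets (0.101), within a range of 0.0073 to 0.115 over its alternatives.

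The Ly49 genes that neighbour Klra8 were read as a list. Klra1, Klra3, Klra4, Klra5, Klra7, Klra9 and Klra17 had 37 further peaks, of which 17 (45.9%) were called higher and 0 lower in the edgeR fit, against 9.43% and 11.6% of all tested peaks. Their median log2 fold change was 0.36 and 36 of 37 values were above 0. Klra4, an activating Ly49 receptor, gave 9 calls among 17 peaks, Klra9 4 among 7 and Klra7 3 among 5. The peak with the smallest p was at Klra4 (chr6:130047365-130049036): 18.2, 20.1 and 22.6 CPM at 18 months against 9.91, 14.2 and 19.2 at 3 months. Its log2 fold change was 0.54 ± 0.13 (SE; edgeR adjusted p = 0.00147). The summed level of the 37 peaks was 337 to 415 CPM at 18 months and 221 to 341 at 3 months, overlapping only through 3-month male BM-252 at 341 CPM and 18-month female 35 at 337. The count of higher calls fell to 9 without young female BM-245, whose sum of 221 CPM was the lowest, and to 10 without old male 38. In those fits 6.67% and 8.33% of all tested peaks were called higher. Peaks in this cluster share neighbours and related sequence, so they are not independent of one another.

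Klrb1c encodes NK1.1, a C-type lectin-like receptor used to identify NK cells in several strains. All 6 of its peaks lay outside the gene, with centres 7440 to 14519 bp from its ends. The farthest, Klrb1c peak 6, lay closer to Klrb1b, at 10546 bp. Klrb1c peak 4 (chr6:128797746-128798727), upstream of the start, stood at 11.0, 14.4 and 16.8 CPM at 18 months and at 8.76, 11.3 and 12.7 at 3 months. Of the old mice, 4 lay above all young ones, and the increase was 0.37 (SE 0.13, edgeR adjusted p = 0.0299). It was lost without old female 36, old male 38, young females BM-243 or BM-245, or young male BM-251 (adjusted p 0.0534 to 0.135). Klrb1c peak 2 (chr6:128770739-128771351), beyond the other end, went the opposite way: 3.76, 5.27 and 6.96 CPM at 18 months against 4.96, 6.95 and 10.8 at 3 months. Of the young mice, 3 exceeded every old one there. This peak fell by 0.48 on the log2 scale (SE 0.16, edgeR adjusted p = 0.0304). It was not called under total-count scaling (adjusted p = 0.0722), without the sex covariate (0.0518), or without old female 36 or 42, old male 40, young female BM-245 or young male BM-251, within a range of 0.0140 to 0.140 over its alternatives.

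The widest peak, Klrb1c peak 1 (chr6:128762012-128767989), was also the most abundant, at 103, 111 and 127 CPM at 18 months and 94.6, 109 and 112 CPM at 3 months. The 3 old females, at 115 to 127 CPM, lay above all 6 young mice, while the 3 old males, at 103 to 107 CPM, lay among them. The log2 fold change over both sexes was 0.09 and not past the threshold (edgeR adjusted p = 0.504). With offsets smoothed on peak abundance or width it was 0.33 and 0.34 and was called, so the call at this peak depends on the scaling. Klrb1c peaks 3, 5 and 6 had log2 fold changes of 0.01 to 0.14, and their ages overlapped.

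Klrd1 encodes CD94, the partner of the NKG2 receptors that bind the non-classical MHC molecule Qa-1. Of its 3 peaks, 1 lay inside the gene and the other two inside the neighbour Klre1, and none was called. Klrd1 peak 1 (chr6:129574840-129575311) had the largest difference, with 2.99, 4.68 and 5.26 CPM at 18 months and 1.79, 3.07 and 4.34 at 3 months. Its log2 fold change was 0.45 ± 0.21 (SE; edgeR adjusted p = 0.111). Klrd1 peak 2 (chr6:129581255-129582070), the most abundant, was nearly level at 5.98, 7.16 and 7.69 CPM against 4.49, 6.80 and 7.88. The groups overlapped fully at the latter, with a log2 fold change of 0.09.

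Klrk1 encodes NKG2D, an activating receptor for stress-induced ligands. Its only peak (chr6:129608135-129608850), 1831 bp beyond the far end of the gene, was 4.52, 6.66 and 8.42 CPM at 18 months and 4.96, 5.86 and 7.43 at 3 months. The log2 fold change was 0.22 (SE 0.16, edgeR adjusted p = 0.362), with 0.53 in females and -0.11 in males. This was the 1 peak of 27 with an unadjusted interaction p under 0.05 (0.0447), which 10.0% of all tested peaks had, and the edgeR adjusted value was 0.486.

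**Figure D2:**
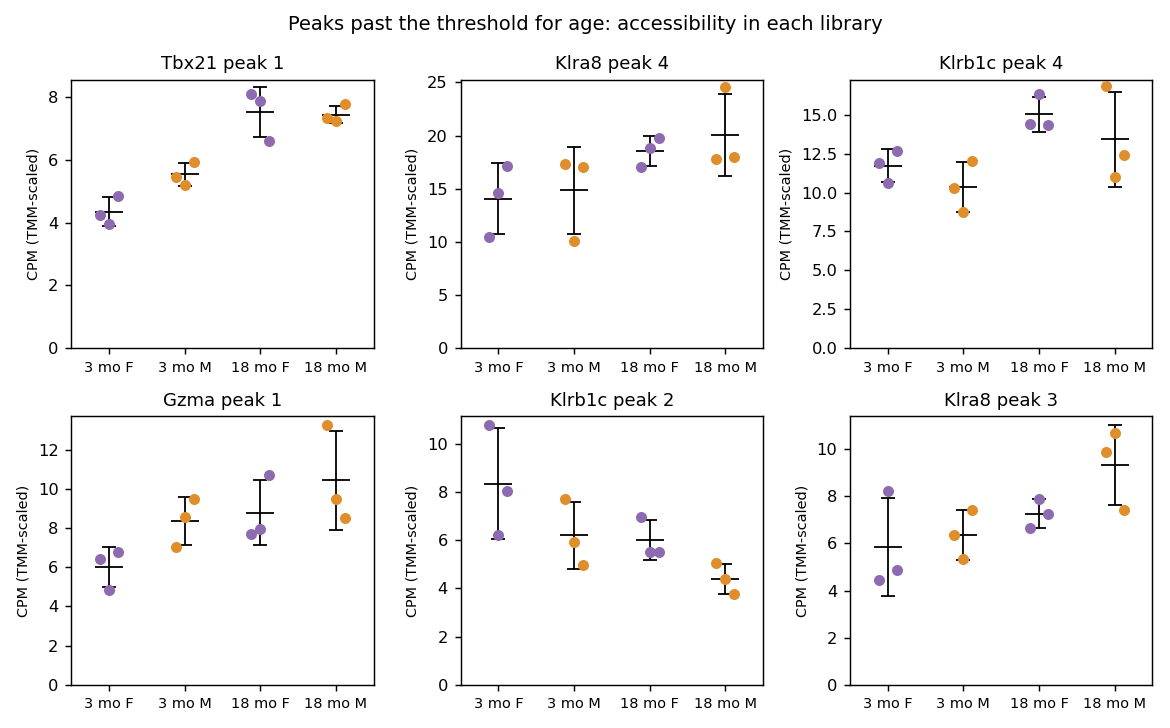
CPM (y axes, linear and starting at 0) in each library at the 6 called peaks, by age and sex, with points for mice and black bars for the mean and SD of 3. Only at Tbx21 peak 1 do the points at 18 months all lie above those at 3 months.

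The effectors gave 1 higher call among 5 peaks, near the 21.0% called (9.43% higher) of all tested peaks, with all 5 log2 fold changes above 0 and a median of 0.26. Gzma encodes granzyme A, a protease of cytotoxic granules, and lies inside the gene Cdc20b, so its peaks cannot be assigned to Gzma alone. The call was at Gzma peak 1 (chr13:113093290-113094032), which overlaps the far end of the gene and has its centre 163 bp beyond it. It stood at 7.69, 9.01 and 13.3 CPM at 18 months and 4.85, 6.89 and 9.47 at 3 months. All 6 old mice lay above the young median, though 3 of them overlapped the young range. The increase was 0.43 (SE 0.15, edgeR adjusted p = 0.0299), and it was not called with abundance offsets (0.0512), width offsets (0.0627) or without the sex covariate (0.0530). It was also lost without old female 42, old male 38, young females BM-243 or BM-245, or young male BM-251, within an adjusted p range of 0.0112 to 0.121.

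Gzma peak 2 (chr13:113096784-113097870), the most abundant at this gene, was 8.91, 13.1 and 15.7 CPM at 18 months and 9.49, 11.1 and 12.3 at 3 months. Its log2 fold change of 0.20 was not past the threshold (edgeR adjusted p = 0.286). Gzma peak 4 (chr13:113100431-113101500) covers the gene start and the promoter printed above. It showed the smallest difference of the effector peaks: both ages had a median of 10.1 CPM, with 8.13 to 12.2 at 18 months and 6.68 to 11.6 at 3 months. The log2 fold change there was 0.05 ± 0.14 (SE; edgeR adjusted p = 0.845). Gzma peak 3, inside the gene, had 0.26 (edgeR adjusted p = 0.255).

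Prf1 encodes perforin. Its peak (chr10:61297335-61297756) covers the printed promoter stretch and was low, at 3.39, 4.25 and 5.44 CPM at 18 months and 2.79, 3.45 and 3.53 at 3 months. Of the 6 old mice, 5 exceeded every young one. The log2 fold change was 0.40 ± 0.19 (SE), which did not pass the threshold (edgeR adjusted p = 0.140). Per-library counts at this peak, between 25 and 55, were among the lowest here.

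The 15 kb limit left Gzmb without a peak by a narrow margin. The closest centre was 15.2 kb away (chr14:56243403-56243794) and lay nearest to Gzmc, a relative of Gzmb. Just inside the limit was Tbx21 peak 1 at 14812 bp. The peak outside stood at 2.54 to 4.59 CPM at 18 months and 1.15 to 3.42 at 3 months, and had a log2 fold change of 0.65 (SE 0.25, edgeR adjusted p = 0.0591). For Ncr1 the closest centre was 44.7 kb away.

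The transcription factors gave 1 higher call among 8 peaks (12.5%, against 21.0% called and 9.43% higher of all tested peaks), with 7 log2 fold changes above 0 and a median of 0.19. The call was at Tbx21 peak 1 (chr11:97082883-97083508), beyond the far end of the gene and slightly closer to Osbpl7, at 14291 bp. Levels were 6.62, 7.55 and 8.10 CPM at 18 months and 3.95, 5.04 and 5.93 at 3 months. All 6 old mice lay above all 6 young ones, which was the case at this peak only of the 27, against 2.20% of all tested peaks. Ages did not overlap, in either direction, at 7.24% of all tested peaks. The increase was 0.60 on the log2 scale ± SE 0.15 (edgeR adjusted p = 0.00344). It was called in each of the 12 fits that leave out a library and in each of the 9 other fits, with adjusted p from 0.0013 to 0.0130.

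Tbx21 peak 6 (chr11:97126866-97127597), upstream of the start and nearest to Tbkbp1, was the most abundant at this gene. It stood at 8.70, 10.8 and 12.3 CPM at 18 months and 6.20, 8.89 and 12.5 at 3 months. The young mice spanned the whole range of the old, and the log2 fold change of 0.29 was not past the threshold (edgeR adjusted p = 0.145) except without young male BM-253 (0.45, adjusted p = 0.0096, range over the alternatives 0.0096 to 0.330). The 4 peaks inside Tbx21 had log2 fold changes of 0.01 to 0.25. The one closest to the start, Tbx21 peak 5, was level, with medians of 6.88 and 6.82 CPM.

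Eomes marks mature NK cells and memory CD8 T cells. Eomes peak 2 (chr9:118489616-118490083), 3717 bp beyond the far end of the gene, was 4.26, 6.01 and 7.89 CPM at 18 months and 4.36, 5.55 and 6.76 at 3 months. Its log2 fold change was 0.16 (SE 0.17, edgeR adjusted p = 0.521). Eomes peak 1, inside the gene, was 4.16 to 5.52 CPM at 18 months and 3.91 to 7.26 at 3 months, with a log2 fold change of -0.08. The groups overlapped at both peaks.

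**Figure D3:**
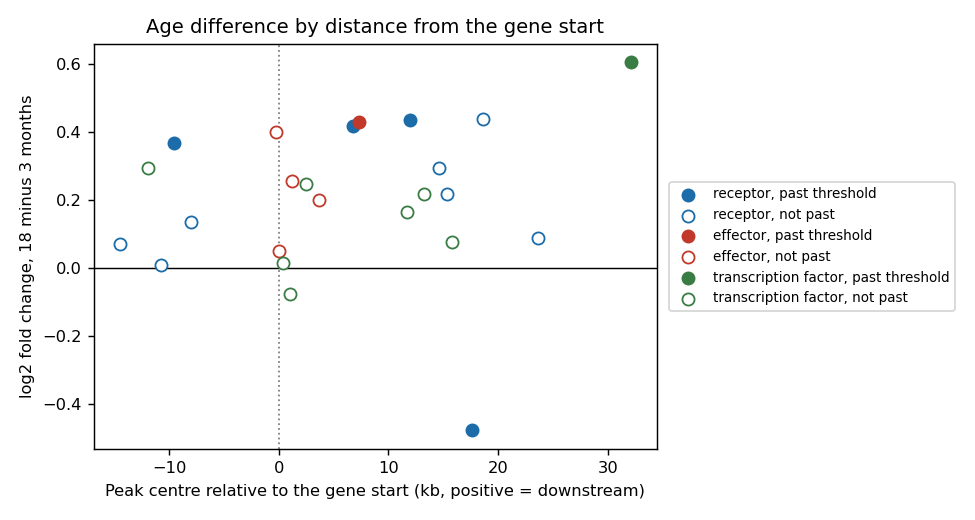
Log2 fold change with age (y axis) against the distance of the peak centre from the gene start in kb (x axis, positive downstream) for the 24 peaks of genes with a RefSeq promoter entry. The 6 called peaks, filled, lie away from the start, 9595 bp upstream or 6777 to 32136 bp downstream.

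Position relative to the gene start was compared as a description. The 4 peaks with centres closest to a start, at Prf1, Gzma, Tbx21 and Eomes, had log2 fold changes of 0.40, 0.05, 0.01 and -0.08, and none was called. The 6 called peaks had centres at least 6777 bp away from the start. By peak centre, 2 of 11 peaks inside the genes (18.2%) were called, and 4 of 16 outside them (25.0%), both near the 21.0% of all tested peaks. Called higher were 18.2% inside and 18.8% outside, against 9.43% of all tested peaks.

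Age differences were then taken within each sex. In females 1 of 27 peaks was called, Tbx21 peak 1 (log2 fold change 0.79, edgeR adjusted p = 0.0113), against 11.9% of all tested peaks (5.70% higher). In males 0 were called in edgeR and 0 in DESeq2, while edgeR called 11.4% of all tested peaks (3.21% higher and 8.18% lower). At an unadjusted p under 0.05 in males there were 3 of the 27 peaks and 18698 of all 75164. In females there were 8 of the 27 and 19566 of all 75164. The log2 fold change was above 0 at 23 peaks in females and 20 in males, and above 0 in both at 17. Over all tested peaks it was above 0 at 51.2% in females, at 53.0% in males, and in both at 26451 of 75164. Receptor peaks had medians of 0.28 in females and 0.05 in males, and effector peaks 0.09 and 0.33. Whether the age effect differed by sex was tested by the interaction, which passed at 0 of 27 peaks in edgeR and 0 in DESeq2, against 0.00532% of all tested peaks in edgeR. At an unadjusted interaction p under 0.05 there was 1 of the 27 peaks, against 10.0% of all tested peaks.

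Other genes of the same programme were read from lists, leaving out the 27 peaks. The whole receptor list, Ly49 genes included, had 149 peaks, of which 36 were higher and 5 lower. That is 27.52% called, against 21.0% of all tested peaks, and 24.16% called higher, against 9.43%. Receptors and their signalling partners other than Ly49 had 112 peaks at 27 genes, of which 19 were higher and 5 lower. Their median log2 fold change was 0.17, with 21.4% called, against 21.0%, and 16.96% called higher, against 9.43%. Their summed level was 2186 to 2297 CPM at 18 months and 1882 to 2070 at 3 months, with no overlap. Of all 149 peaks of the receptor list, those with the smallest p were at S1pr5, a receptor that guides NK cells out of marrow, and at the signalling adaptors Hcst and Tyrobp, the Fc receptor Fcgr3 and Klra4. At these peaks S1pr5 fell by 0.41, and Hcst rose by 0.48, Tyrobp by 0.46 and Fcgr3 by 0.63 on the log2 scale. Another Fcgr3 peak was called lower and fell by 0.29. Hcst and Tyrobp are neighbours on chromosome 7, and Tyrobp and Fcgr3 are also used by myeloid cells, whose neutrophil markers were called higher at 34 of 97 peaks (35.1%, against 9.43% of all tested peaks) and lower at 1. Their part in these calls was not tested.

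Cytotoxic effector genes other than the members had 133 peaks, 25 higher and 7 lower, with a median log2 fold change of 0.16. Of these peaks 24.1% were called, against 21.0% of all tested peaks, and 18.8% were called higher, against 9.43%. The higher calls lay at Srgn, Lyst, Stx11, Tnf, Rab27a, Ctsc, Ccl3, Ccl4, Ccl5 and Stxbp2, while the called peaks of Gzmm and Fasl were lower. The part of other marrow cells in these calls was not tested. The smallest p-values were at Serpinb9, a granzyme B inhibitor, Stx11, Ctsc, Fasl and Gzmm. Serpinb9 fell by 0.71, the death ligand gene Fasl fell by 0.61 and Gzmm, which encodes granzyme M, fell by 0.46. Stx11, which serves granule release, rose by 0.70 at the peak of smallest p, but its called peaks went both ways, and 1 of the 5 fell by 0.80. Ctsc, the protease that activates granzymes and neutrophil proteases, rose by 0.61. Transcription factors of NK cells had 163 peaks, 24 higher and 17 lower, with a median of 0.05. Of these peaks 25.2% were called, against 21.0%, and 14.7% were called higher, against 9.43%. Nfil3, required for NK development, rose by 0.73, Bhlhe40 by 0.63 and Stat4 by 1.29 at its strongest peak, while Stat5b fell by 0.54 at its peak of smallest p. Of the 3 called Stat5b peaks, 2 were lower and 1 rose by 0.54. Zeb2 and Stat5a, not among the smallest p-values, had lower calls only, with log2 fold changes of -0.66 to -0.38 at Zeb2. The T cell list gave 7 higher and 5 lower calls among 81 peaks (14.8%, below the 21.0% of all tested peaks) and a median of 0.10, and its summed level was 1425 to 1488 CPM at 18 months and 1386 to 1465 at 3 months. Among lists of other cells, mast cell and basophil genes gave 8 higher (42.1%, against 9.43% of all tested peaks) and 0 lower calls among 19 peaks. The other lists are set against 21.0% called in either direction. B cell genes gave 4 higher and 7 lower among 84 (13.1%), and plasma cell genes 2 higher and 1 lower among 22 (13.6%). Plasmacytoid dendritic cell genes gave 0 and 1 among 34 (2.94%), and ILC2 genes 3 and 3 among 21 (28.6%).

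**Figure D4:**
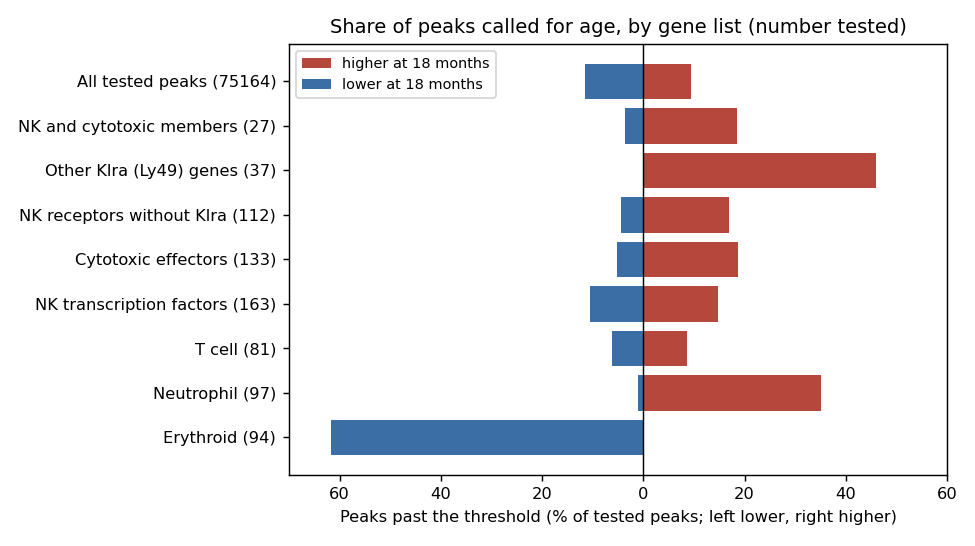
Share of tested peaks called lower (left) or higher (right) at 18 months, in percent, for the 27 peaks, for each list and for all tested peaks, with the number tested in brackets. The Ly49 genes other than Klra8 had higher calls at 17 of 37 peaks (45.9%) and 0 lower. The erythroid list had 58 lower calls of 94 (61.7%) and 0 higher. Over all tested peaks 11.6% were called lower and 9.43% higher.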

How the data were processed

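The authors deposited read counts for 75281 consensus peaks in 12 bone marrow libraries, as whole numbers with a smallest value of 1. Trimmomatic, BWA, MACS2, DiffBind, edgeR and the build mm10 are named in the submitters' processing notes, with no role or settings. Whether duplicates were removed or read ends shifted is not given in the sources used here. Kept duplicates would make counting error look too small. Peaks were matched to RefSeq genes on GRCm38.p6. A peak needed a CPM over 1 in 2 or more libraries to be tested. The test used edgeR 4.0.16 in R 4.3.3 (TMM factors, glmQLFit, glmQLFTest), with age and sex in the model, or with 1 mean for each of the 4 groups for effects within a sex and the interaction. P-values were adjusted over all tested peaks (Benjamini-Hochberg). SEs were derived from the F statistic. The scripts were tested on simulated data. DESeq2 1.42.0 and other scalings, filters, windows and left-out libraries were alternatives. Every gene was described, with values at the peak of smallest p and of highest mean, and the 3 NK lists by their 5 called peaks of smallest p. Planned promoter printing required a called peak at the start. As no such peak was found, promoters under any peak were printed. Genes and lists were chosen with earlier results of these data known. One list entry, Gnly, is not in the gene table.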

Additional observations from a re-analysis of the deposited data

Results flagged for a closer look

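Of 54 groups of 6 libraries (27 peaks at each age), 4 held a library apart from the other 5 by Dixon's criterion (0.625 for 6 values), where chance gives about 1 in 20. At Eomes peak 1, 3-month female BM-245 stood at 7.26 CPM, above the other young mice. At Klra8 peak 4, 18-month male 39 stood at 24.5 CPM, the highest value of its age. At Klrb1c peak 5, 18-month female 36 stood at 18.2 CPM and above the rest. At Klrb1c peak 6, 18-month male 38 stood at 13.6 CPM and below the rest.

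At Klrb1c peak 1 the 3 old females lay above the 3 young females, and the 3 old males lay below the 3 young males. The interaction (males minus females) was -0.32 on the log2 scale, and the interaction test did not pass (edgeR adjusted p = 0.505). Old females and old males were sequenced in separate runs, so sex and run cannot be told apart there.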

How the results depend on the processing

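Of the 27 peaks, 6 were called. With a 5 kb window 3 of 17 peaks were called (17.6%; 3 higher, 0 lower), in the gene alone 2 of 11 (18.2%; 2 higher, 0 lower) and with 50 kb 16 of 72 (22.2%; 15 higher). These shares lie near the 21.0% of all tested peaks called in either direction. The higher calls alone, 3 of 17, 2 of 11 and 15 of 72, stand against 9.43% of all tested peaks called higher. The 1 lower call, at a receptor, became 0 with total counts and with no sex covariate. Receptors held 11 of the 15 higher calls at 50 kb, where 9.43% of all tested peaks were called higher. The effector call became 0 with abundance offsets, width offsets, no sex covariate and the gene alone, and 2 at 50 kb. The transcription factor call became 0 at 5 kb and in the gene alone, and 2 at 50 kb. In females, 2 peaks were called with total counts, abundance offsets and width offsets each, 0 at 5 kb and in the gene alone, and 3 of 72 at 50 kb. In males these were 2 with total counts, 1 with abundance offsets, 1 with width offsets and 6 of 72 at 50 kb. The windows use the main fit, where 11.9% of all tested peaks were called in females and 11.4% in males. Shares of all tested peaks within a sex under the other settings are not given here. Leaving out each library gave 1 to 7 calls (higher 1 to 6, lower 0 to 1), receptors 0 to 4 higher and 0 to 1 lower, effectors 0 to 1, transcription factors 1 to 2, females 0 to 1 and males 0 to 2. The cause of these moves was not tested, apart from the windows, which change the peaks counted. Total counts moved the median log2 fold change of all tested peaks from 0.02 to 0.10, and that of the 27 peaks from 0.22 to 0.29. Single libraries also added calls: Klra8 peak 1 was called without 3-month female BM-244 (adjusted p = 0.0436), and Klrd1 peak 1 without 3-month male BM-252 (edgeR adjusted p = 0.0375).

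Uncalled peaks with small values changed sign. Klrb1c peak 5 was -0.0025 with abundance offsets and -0.15 to 0.082 without single libraries. Tbx21 peak 5 was -0.032 with abundance and -0.037 with width offsets, and -0.088 to 0.089 without single libraries. Klrd1 peak 3 was -0.038 with width offsets and -0.034 to 0.24 without single libraries. Without single libraries, Eomes peak 1 ranged from -0.14 to 0.047, Gzma peak 4 from -0.050 to 0.12, Klrd1 peak 2 from -0.016 to 0.15 and Tbx21 peak 2 from -0.014 to 0.19. No paired analysis was possible because the groups share no replicate numbers.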
